A study of Danio rerio with 6 samples.

Results

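The 9 genes described here encode the surface receptors, the integrin chains with their activator, and proteins of the cytoskeleton and granules of thrombocytes, the nucleated fish counterpart of platelets. These genes and the lists used below were chosen with earlier results of these data known. Their shares set against those of all genes are thus descriptive only. The 9 genes were taken from the 32105 genes of the count table, by name except for the FERMT3 paralogue. That paralogue was picked as the one already called in these data. The genes are itga2b, itgb3a, itgb3b, gp1bb, gp9, the FERMT3 paralogue ENSDARG00000030938, tubb1, thbs1b and plek. The FERMT3 paralogue lies on chromosome 14, where the RefSeq table places fermt3b, and is called fermt3b below. All 9 had enough counts to be tested. RNA was sequenced from cells sorted for the cd41 green fluorescent reporter out of zebrafish embryos at 40 hours after fertilization. There were 3 libraries from ddx41 mutants and 3 from wildtypes, which the series title calls siblings; the labels do not give the ddx41 allele, the strain or the number of embryos in a library. The fluorescent reporter is carried by both genotypes, and DDX41 is a DEAD-box RNA helicase.

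As background, the cd41 gene itga2b encodes the alphaIIb integrin chain, which pairs with the beta3 chain to form the fibrinogen receptor through which thrombocytes aggregate. In cd41 reporter fish, dim cells are largely blood stem and progenitor cells and bright cells are largely thrombocytes. In mammals, glycoproteins Ib and IX form the receptor for von Willebrand factor on the platelet surface, kindlin-3 (FERMT3) switches the integrins on, and beta1 tubulin (TUBB1) forms the microtubule coil under the platelet membrane.

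Each mutant library held 14577735 to 15912260 counts and each wildtype library 17001423 to 17639699, and the 9 genes together took 0.0373% to 0.0654% of mutant counts and 0.06998% to 0.0821% of wildtype counts. Genes of the mitochondrial genome took 26.5% to 30.7% of mutant counts and 21.3% to 27.6% of wildtype counts. Mutant replicate 1 and wildtype replicate 1 stood apart from the other libraries of their genotypes, with limma voom sample weights of 0.478 and 0.523, against 1.16 to 1.75 for the other 4 libraries. Whether each library had its own clutch or sort is not stated, so a p-value here covers the spread among the libraries, which may be technical. Levels are CPM, counts scaled to library size, with TMM factors that correct for differences in library composition. A gene passed where edgeR's quasi-likelihood test gave an adjusted p below 0.05 over all 18722 genes tested. In bulk RNA of sorted cells, fewer cells of a type and less RNA per cell cannot be told apart.

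The members differed in direction. The glycoprotein genes gp9 and gp1bb and the tubulin gene tubb1 rose 9.54-fold, 7.5-fold and 9.30-fold in the mutants, whereas the integrin activator gene fermt3b and the thrombospondin gene thbs1b were 3.31-fold and 2.75-fold lower. The integrin chain genes itga2b, itgb3a and itgb3b and the pleckstrin gene plek did not pass. In all, 3 of 9 rose, 2 fell and 4 did not pass. Because its FERMT3 paralogue was picked as the called one, the fall of fermt3b was fixed in advance. The same gene is included in each count of lower members given here and below, wherever any fell. It is also 1 of the 3 genes with the mutants below, so these counts are not free of that choice. Across all genes tested, 3.34% were called higher, 1.99% lower and 5.33% in either direction. Mutant and wildtype libraries did not overlap in 6 of the 9 genes, 3 with the mutants above and 3 with the mutants below, against 28.7% of all genes tested (15.3% above and 13.4% below). With the replicate number as a block, 3 rose and 3 fell, plek being added (edgeR adjusted p = 0.0196), where 4.90% of all genes were called higher, 3.49% lower and 8.39% in either direction. DESeq2 and limma voom with sample weights each called 3 members higher and 3 lower. DESeq2 called 7.39% higher and 6.65% lower of the 17557 genes to which it gave an adjusted p, the base of its shares throughout. Over all 18722 genes tested, limma voom called 7.80% higher and 7.22% lower. The edgeR counts depended on which library was left out. Over all genes, 625 were higher and 373 lower with every library kept, and these counts moved too. With mutant replicate 1 left out 3 rose and 2 fell (1135 higher and 832 lower over all genes). With mutant replicate 2 left out 1 rose and none fell (146 and 37 over all genes). None passed with mutant replicate 3 left out (103 and 21) or with wildtype replicate 2 left out (51 and 11). With wildtype replicate 1 left out 2 rose and 1 fell (425 and 343). With wildtype replicate 3 left out 1 rose and 1 fell (217 and 117).

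**Figure D1:**
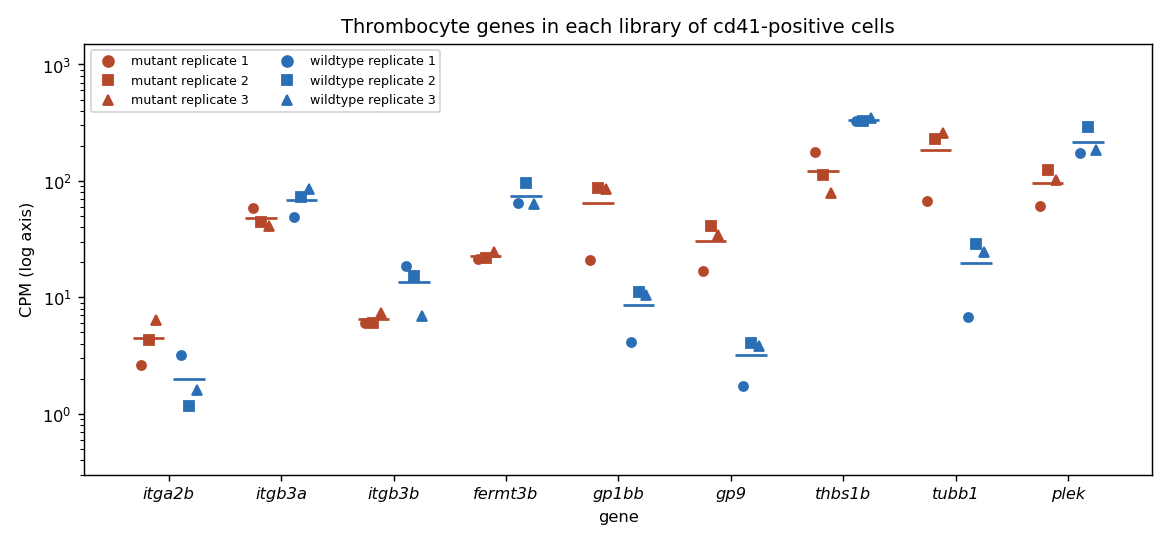
Level of each of the 9 genes in each library, as CPM on a log axis; points are libraries and bars are means of 3. For gp1bb, gp9 and tubb1 every mutant library lay above every wildtype library, for fermt3b, thbs1b and plek every mutant library lay below, and the genotypes overlapped for itga2b, itgb3a and itgb3b.

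Among the integrin chains, none passed by edgeR, DESeq2 or limma voom. In edgeR, 1 of the 3, itgb3b, was lower with an unadjusted p below 0.05. Over all genes tested, 11.9% were higher and 10.9% lower by that measure. The reporter's own gene itga2b (ENSDARG00000018687, GRCz10 chromosome 3, 21219961 to 21251943, minus strand) had few counts in the sorted cells, with 33, 67 and 101 counts in mutant replicates 1 to 3 and 61, 19 and 31 counts in wildtype replicates 1 to 3. That gave 2.62, 4.33 and 6.44 CPM in the mutants and 3.22, 1.18 and 1.60 CPM in the wildtypes. The highest wildtype library, replicate 1, lay above the lowest mutant library, so the genotypes overlapped. Means were 4.46 ± 1.91 CPM in the mutants and 2.0 ± 1.08 CPM in the wildtypes (n = 3 each, SD), a log2 fold change of 1.15 ± 0.64 (SE; edgeR adjusted p = 0.326). Per kilobase of exon, itga2b stood above 25.7% of the tested genes in mutants and above 12.09% in wildtypes. A stretch of 26 of its 3760 exon bases is shared with si:ch73-54a8.2, whose fragments there were not assigned. Rows of the table are Ensembl genes, so this value is that of the itga2b gene and not of the fluorescent protein.

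The beta3 chain has a pair of paralogues in zebrafish, and itgb3a was the more abundant in every library. The paralogue itgb3a (ENSDARG00000056767, chromosome 3, 19471303 to 19499876, plus strand) stood at 58.1, 44.1 and 40.7 CPM in mutant replicates 1 to 3 and at 48.8, 73.4 and 85.4 CPM in wildtype replicates 1 to 3. Mutant replicate 1 lay above wildtype replicate 1, and the other mutant libraries lay below every wildtype library. Its mean was 47.6 ± 9.22 CPM in the mutants and 69.2 ± 18.6 CPM in the wildtypes (n = 3, SD; log2 fold change -0.54 ± 0.29 SE, edgeR adjusted p = 0.307). Without both replicate 1 libraries, a comparison of 2 against 2 chosen after the data were seen, itgb3a was at -0.92 and passed (adjusted p = 0.0211). The other paralogue, itgb3b (ENSDARG00000045070, chromosome 12, 26343118 to 26370384, plus strand), stood at 6.03, 6.07 and 7.40 CPM in the mutants and at 18.5, 15.3 and 6.88 CPM in the wildtypes. Wildtype replicate 3 fell within the mutant range and the other wildtype libraries lay above it. Means of itgb3b were 6.50 ± 0.777 CPM in the mutants and 13.6 ± 6.0 CPM in the wildtypes (log2 fold change -1.06 ± 0.44 SE, edgeR adjusted p = 0.194).

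Set against each other within a library, on the scale of CPM per kilobase, itgb3a exceeded itgb3b 6.46-fold to 11.3-fold in mutant libraries and 3.11-fold to 14.6-fold in wildtype libraries. The log2 ratio averaged 2.77 ± 0.39 in mutants and 2.38 ± 1.09 in wildtypes on CPM with 0.5 added (n = 3 each, SD). The difference of 0.39 was within the spread of the wildtype libraries (two-sided exact permutation p = 0.6, where 3 against 3 cannot go below 0.1), and it was -0.11 without wildtype replicate 1. Both beta3 genes exceeded itga2b in every library. The excess of itgb3b over itga2b was 1.41-fold to 2.83-fold in mutants and 5.27-fold to 16.0-fold in wildtypes. These ranges did not overlap. Those of itgb3a over itga2b did, at 9.11-fold to 31.99-fold in mutants and 21.9-fold to 89.7-fold in wildtypes. The wildtype ratios rest on only 19 to 61 counts of itga2b per library. Apart from that of the beta3 paralogues, ratios between genes were chosen after the values were seen and are given with no test. Protein was not measured.

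The integrin activator gene fermt3b (ENSDARG00000030938, chromosome 14, 46923752 to 47010338, plus strand), whose product binds the tail of the beta chain, fell in the mutants. It stood at 21.5, 21.7 and 24.4 CPM in mutant replicates 1 to 3 and at 64.7, 95.3 and 63.8 CPM in wildtype replicates 1 to 3. The mutant libraries were close together, and the highest of them lay far below the lowest wildtype library. Means were 22.5 ± 1.63 CPM in the mutants and 74.6 ± 17.9 CPM in the wildtypes (n = 3, SD; 3.31-fold lower, log2 fold change -1.73 ± 0.27 SE, edgeR adjusted p = 0.0124). Adjusted p was 0.0658 without mutant replicate 2, 0.0621 without mutant replicate 3 and 0.0771 without wildtype replicate 2. Of its 3001 exon bases 424 are shared with FLRT1, where fragments were not assigned.

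The other kindlin-3 gene, fermt3a (ENSDARG00000079267, chromosome 5), is no member and was looked at after its values were seen. It stood at 46.8, 45.9 and 39.9 CPM in the mutants and at 60.1, 103 and 99.7 CPM in the wildtypes, with every mutant library below every wildtype library. Its log2 fold change was -0.99 ± 0.28 (SE) and did not pass (edgeR adjusted p = 0.0739). Per kilobase, the ratio of fermt3a to fermt3b was 1.68 to 2.24 in the mutant libraries and 0.956 to 1.60 in the wildtype libraries. These ranges did not overlap. Since fermt3b was picked as the called paralogue, that choice favoured a higher ratio in the mutants, and no shift between the paralogues can be read from it.

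The receptor genes gp9 and gp1bb rose together. The gene of glycoprotein IX, gp9 (ENSDARG00000090638, chromosome 23, 4753753 to 4756677, plus strand), stood at 16.7, 41.1 and 34.4 CPM in mutant replicates 1 to 3 and at 1.74, 4.10 and 3.83 CPM in wildtype replicates 1 to 3. Replicate 1 was the lowest library of each genotype, yet mutant replicate 1 lay above every wildtype library. Means were 30.7 ± 12.6 CPM in the mutants and 3.22 ± 1.29 CPM in the wildtypes (n = 3, SD; log2 fold change 3.25 ± 0.48 SE, edgeR adjusted p = 0.0109). The wildtype libraries held 33 to 74 counts of gp9. Adjusted p was 0.0505 without mutant replicate 3 and 0.0733 without wildtype replicate 2.

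The gene of the beta chain of glycoprotein Ib, gp1bb (ENSDARG00000074441, chromosome 8, 4519426 to 4529990, minus strand), rose with it. It stood at 20.8, 86.8 and 84.8 CPM in the mutants and at 4.17, 11.05 and 10.4 CPM in the wildtypes. Mutant replicate 1 lay well below the other mutant libraries, but every mutant library lay above every wildtype library. Means were 64.2 ± 37.6 CPM in the mutants and 8.56 ± 3.81 CPM in the wildtypes (n = 3, SD; log2 fold change 2.91 ± 0.58 SE, edgeR adjusted p = 0.0262). Leaving out mutant replicate 1 lowered the adjusted p to 0.00258, and leaving out any other 1 library raised it to between 0.0515 and 0.111. Per kilobase, the ratio of gp1bb to gp9 was 0.487, 0.829 and 0.968 in mutant replicates 1 to 3 and 0.939, 1.06 and 1.07 in wildtype replicates 1 to 3. The ratio was near 1 in every library except mutant replicate 1. No gene for the alpha chain of glycoprotein Ib was matched, and gp1ba, gp5 and gp6 are not analysed here.

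**Figure D2:**
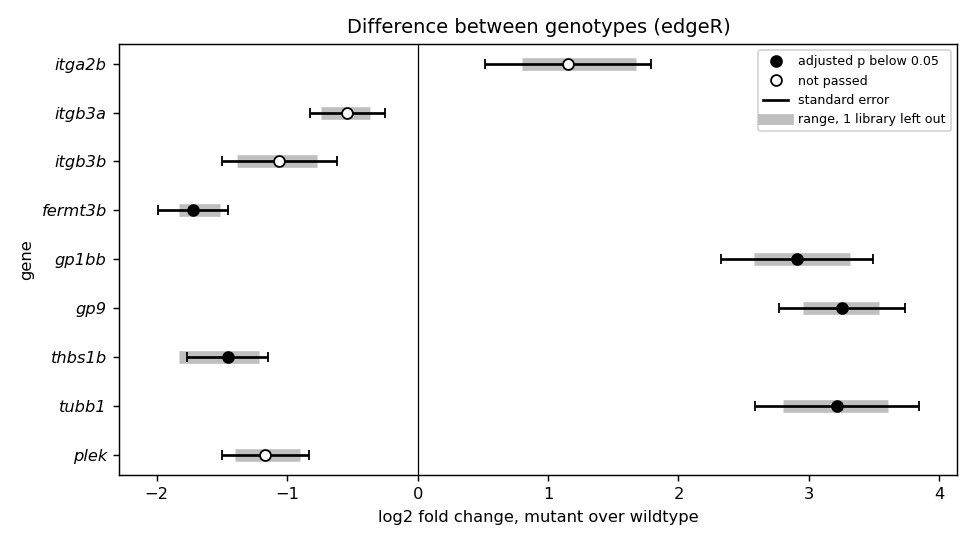
Log2 fold change of mutant over wildtype for each gene (edgeR), with its standard error as a thin bar; filled points passed an adjusted p below 0.05. Grey bars span the values with 1 library left out in turn, and none of them crosses 0. For the 6 genes whose libraries did not overlap, they could not have crossed it.

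Of the cytoskeleton genes, tubb1 rose and plek did not pass. The tubulin gene tubb1 (ENSDARG00000053066, chromosome 6, 49883211 to 49889765, plus strand) stood at 67.5, 230 and 258 CPM in mutant replicates 1 to 3 and at 6.76, 28.7 and 24.4 CPM in wildtype replicates 1 to 3. Replicate 1 was again the lowest of each genotype, and every mutant library lay above every wildtype library. Means were 185 ± 103 CPM in the mutants and 19.9 ± 11.6 CPM in the wildtypes (n = 3, SD; log2 fold change 3.22 ± 0.63 SE, edgeR adjusted p = 0.0244). The adjusted p was 0.0721 to 0.0983 when replicate 2 or 3 of either genotype was left out. Its ratio to gp9 per kilobase was 2.55 to 4.74 in mutants and 2.45 to 4.42 in wildtypes, ranges that overlapped. The ratio of tubb1 to gp1bb was 4.28 to 5.23 in mutants and 2.61 to 4.18 in wildtypes, ranges that did not overlap.

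Pleckstrin, a substrate of protein kinase C in platelets that leukocytes make as well, is encoded by plek (ENSDARG00000104325, chromosome 13, 940458 to 955823, minus strand). It stood at 61.4, 125 and 102 CPM in the mutants and at 175, 290 and 183 CPM in the wildtypes, with no overlap. Means were 96.1 ± 32.3 CPM in the mutants and 216 ± 64.0 CPM in the wildtypes (n = 3, SD; log2 fold change -1.17 ± 0.33 SE, edgeR adjusted p = 0.0763). With the replicate number as a block it passed (adjusted p = 0.0196), as it did by DESeq2 (adjusted p = 0.0156) and limma voom (adjusted p = 0.0217).

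Thrombospondin-1, an adhesive protein that mammalian platelets release from their granules and that many other cells secrete, is encoded in part by thbs1b (ENSDARG00000010785, chromosome 20, 29134730 to 29148944, minus strand). It fell in the mutants, to 176, 112 and 78.5 CPM in replicates 1 to 3, against 329, 329 and 350 CPM in wildtype replicates 1 to 3. The wildtype libraries agreed closely, and the mutants were spread more widely, with replicate 1 the nearest to the wildtypes. Means were 122 ± 49.8 CPM in the mutants and 336 ± 11.7 CPM in the wildtypes (n = 3, SD; 2.75-fold lower, log2 fold change -1.46 ± 0.31 SE, edgeR adjusted p = 0.0317). Without mutant replicate 1 the adjusted p was 0.0059, and without any other 1 library it was 0.0528 to 0.142. The paralogue thbs1a is not analysed here.

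Ordered by level per kilobase of exon, the genes stood differently in the genotypes. In mutants the mean of tubb1 was highest at 126 CPM per kilobase, followed by plek at 47.8, gp9 at 33.0, gp1bb at 27.0, thbs1b at 22.3, itgb3a at 18.3, fermt3b at 7.51, itgb3b at 2.12 and itga2b at 1.19. The ranges of each of the first 5 overlapped those of the next in order, while itgb3a, fermt3b, itgb3b and itga2b were apart from one another. In wildtypes the order was plek at 107 CPM per kilobase, thbs1b at 61.2, itgb3a at 26.5, fermt3b at 24.9, tubb1 at 13.5, itgb3b at 4.43, gp1bb at 3.60, gp9 at 3.46 and itga2b at 0.532. There plek, thbs1b and itgb3a were apart, as were fermt3b and tubb1, and gp9 and itga2b, and the other neighbours overlapped. The level of gp9 stood above 92.1% of tested genes in mutants and above 49.8% in wildtypes. The ratio of gp9 to thbs1b was 0.560 to 2.58 in mutants and 0.0312 to 0.0734 in wildtypes.

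**Figure D3:**
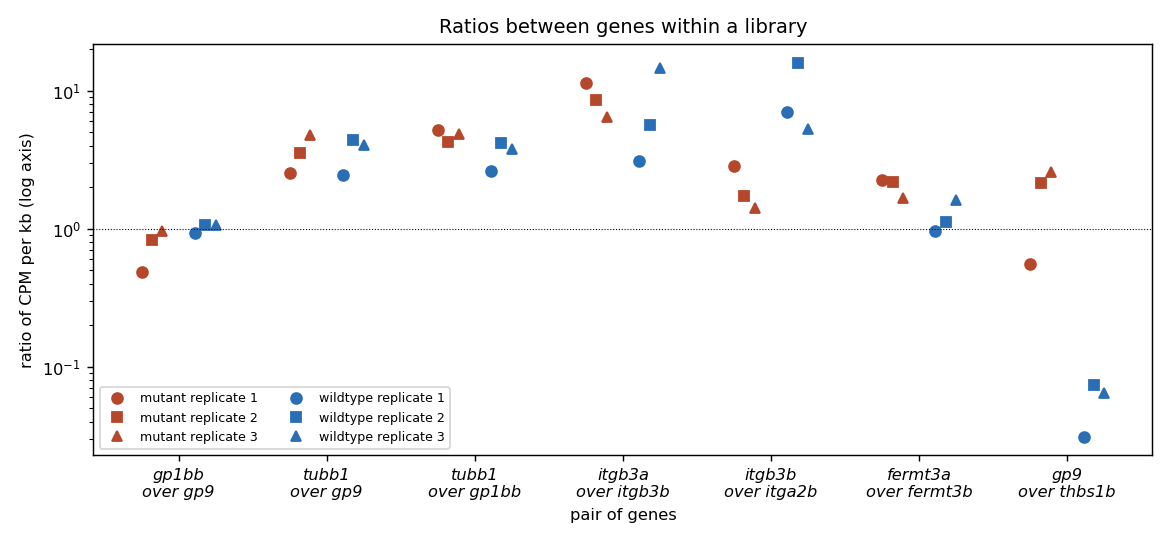
Ratio of CPM per kilobase of exon between pairs of genes within each library, on a log axis; points are libraries and the dotted line marks equal levels. The ratio of gp1bb to gp9 lay between 0.487 and 1.07 in all 6 libraries, whereas that of gp9 to thbs1b lay at 0.560 or above in mutants and at 0.0734 or below in wildtypes.

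Few genes near the members passed in edgeR. Of the 5 tested genes on each side of each member, 90 in all, 1 was called (VAT1, beside itgb3a), against 5.33% of all genes tested. Of these 90, 16 had an unadjusted p below 0.05 in edgeR, and DESeq2 called 6. The shares of all genes by both measures are given with the next counts. Of the 50 neighbours of gp1bb, gp9, tubb1, fermt3b and thbs1b none was called by edgeR. In edgeR 11 had an unadjusted p below 0.05, where 11.9% of all genes tested were higher and 10.9% lower by that measure. DESeq2 called 2 of the 50, where it called 7.39% higher and 6.65% lower of the 17557 genes to which it gave an adjusted p.

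Other genes of the thrombocyte pathway were read from 3 lists, in which no member was counted. Of 38 tested genes of platelet receptors and their signalling, 1 rose, 3 fell and 34 did not pass. That was 2.63% higher and 7.89% lower, against 3.34% and 1.99% of all genes tested, and the median log2 fold change was -0.50, against 0.02 over all genes tested. The gene fcer1g, whose product is the signalling chain of the collagen receptor and of Fc receptors in mammals, fell to 9.12 ± 0.749 CPM in the mutants, against 37.9 ± 12.2 CPM in the wildtypes (n = 3, SD; edgeR adjusted p = 0.0142). The gene rasgrp2, which encodes an exchange factor that activates Rap1 ahead of the integrins, fell to 28.2 ± 12.4 CPM in the mutants, against 130 ± 51.3 CPM in the wildtypes (adjusted p = 0.022). Talin, the partner of kindlin on the integrin tail, is encoded by tln1, which was 2.39-fold lower at 152 ± 14.3 CPM in the mutants and 363 ± 88.0 CPM in the wildtypes (adjusted p = 0.0286). The erythropoietin receptor gene epor rose 7.29-fold (adjusted p = 0.0312); it acts in red blood cells. With the replicate block 4 of this list rose and 3 fell, where 4.90% of all genes were higher and 3.49% lower. None of the 4 genes passed when mutant replicate 3 or either of wildtype replicates 2 and 3 was left out (adjusted p = 0.051 to 0.141). Without mutant replicate 2 only rasgrp2 passed among them (adjusted p = 0.0459).

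Of 35 tested genes of granules, adhesive proteins and coagulation, none rose, 1 fell and 34 did not pass in edgeR, with a median log2 fold change of -0.22. The share lower was 2.86%, near the 1.99% of all genes tested. An unadjusted p below 0.05 was found for 2 higher and 7 lower genes, where 11.9% of all genes tested were higher and 10.9% lower by that measure. DESeq2 called 2 higher and 4 lower (7.39% and 6.65% of its 17557 genes) and limma voom 2 higher and 5 lower (7.80% and 7.22% of all genes). The one that fell was stx11a, a syntaxin gene of granule release, at 46.7 ± 14.99 CPM in the mutants and 147 ± 46.4 CPM in the wildtypes (n = 3, SD; adjusted p = 0.0279). Adjusted p was 0.0676 with mutant replicate 2 left out, 0.118 with mutant replicate 3 left out, 0.125 with wildtype replicate 2 left out and 0.05005 with wildtype replicate 1 left out. The granule formation genes hps5 and nbeal2 did not pass in edgeR, with hps5 at a log2 fold change of -1.54 ± 0.39 (SE; adjusted p = 0.055) and nbeal2 at -1.09 ± 0.29 (adjusted p = 0.06). DESeq2 called both lower (adjusted p = 0.00513 for hps5 and 0.00819 for nbeal2), as did limma voom (0.0377 for hps5 and 0.00478 for nbeal2), and edgeR with no filter called nbeal2 (0.0493). The fibronectin gene fn1b was at 2.101 ± 0.57 (adjusted p = 0.0664), with 2435, 1771 and 868 CPM in mutant replicates 1 to 3 and 734, 280 and 169 CPM in wildtype replicates 1 to 3. With the replicate block fn1b passed at 2.25 (adjusted p = 0.00218), and it passed with no filter (0.0288), by DESeq2 (0.00139) and by limma voom (0.00447).

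Of 52 tested genes of the actin, myosin and tubulin cytoskeleton, none rose, 3 fell and 49 did not pass in edgeR. That was 5.77% lower, against 1.99% of all genes tested. Their median log2 fold change was -0.62, with 47 negative. None of those higher and 23 of those lower had an unadjusted p below 0.05, against 11.9% higher and 10.9% lower over all genes tested. DESeq2 called 14 lower and none higher (6.65% and 7.39% of its 17557 genes). With the replicate block 9 fell and none rose (3.49% and 4.90% of all genes). The largest fall of the list among those that passed was that of VASP (ENSDARG00000099690), whose product extends actin filaments, at 12.998 ± 2.34 CPM in the mutants and 108 ± 41.5 CPM in the wildtypes (n = 3, SD; log2 fold change -3.05 ± 0.36 SE, edgeR adjusted p = 0.00439). It passed without any 1 library (adjusted p at most 0.032). The other VASP gene of the list, vaspb, was at a log2 fold change of -0.30 and did not pass (edgeR adjusted p = 0.634). The alpha tubulin gene tuba1b was 3.02-fold lower (adjusted p = 0.0303), opposite to the beta tubulin gene tubb1, and wasb, of the Wiskott-Aldrich family that starts actin branches, was 2.41-fold lower (adjusted p = 0.0391). Neither passed when replicate 2 or 3 of either genotype was left out (adjusted p = 0.0759 to 0.151). The gene arpc1b, of the complex that makes the branches, was at -1.11 ± 0.28 (SE; adjusted p = 0.0541) and passed with the replicate block (adjusted p = 0.0416), with RLE factors (0.0491), with no filter (0.0430), by DESeq2 (0.00469) and by limma voom (0.00453). No tested gene of this list had its mutant libraries all above its wildtype libraries, and 19 had them all below, against 15.3% above and 13.4% below over all genes tested.

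**Figure D4:**
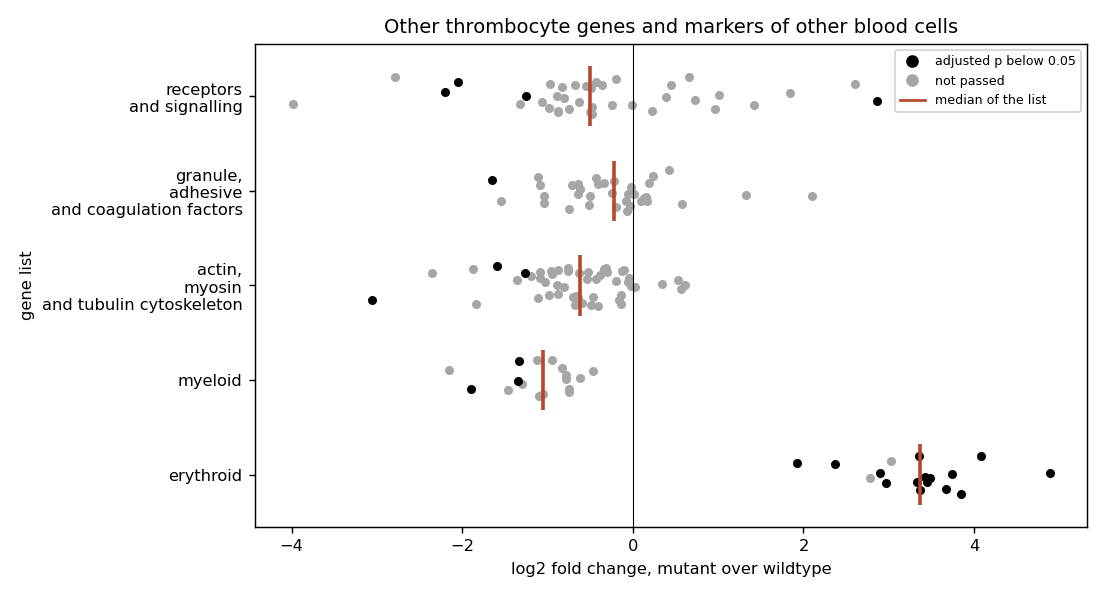
Log2 fold change of mutant over wildtype for each tested gene of the 3 thrombocyte lists and of the myeloid and erythroid marker lists; black points passed an adjusted p below 0.05, the red bar is the list's median, and points are spread vertically for legibility. The cytoskeleton list lies mostly below 0 with a median of -0.62, the myeloid markers lie all below 0 and the erythroid markers all above.

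Markers of other blood cells moved in the same libraries. Of 17 erythroid markers 15 were higher, which was 88.2% against 3.34% of all genes tested. Their median log2 fold change was 3.36, against 0.02 over all genes tested. Their summed level was 12007 to 37864 CPM in the mutants and 632 to 4767 CPM in the wildtypes. Replicate 1 was the lowest library of each genotype for this sum, as it was for gp9, gp1bb and tubb1. Summed, these 3 genes, also grouped after their values were seen, stood at 105, 358 and 377 CPM in mutant replicates 1 to 3. In wildtype replicates 1 to 3 they stood at 12.7, 43.8 and 38.6 CPM. Per 1000 CPM of erythroid markers they stood at 8.75, 9.46 and 10.5 CPM in mutant replicates 1 to 3. In wildtype replicates 1 to 3 they stood at 20.05, 13.7 and 8.11 CPM. The ranges overlapped through wildtype replicate 3 alone, and wildtype replicates 1 and 2 lay above every mutant library.

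Of 17 myeloid markers 3 were lower, which was 17.6% against 1.99% of all genes tested. All 17 were negative and the median was -1.06, against 0.02 over all genes tested. Of these 17 markers, 3 are also counted in the thrombocyte lists. Their summed level was 9609 to 13210 CPM in the mutants and 16212 to 32920 CPM in the wildtypes. The genes fermt3b, thbs1b and plek, grouped after their values were seen, summed to 205 to 259 CPM in the mutants and 569 to 714 CPM in the wildtypes. Per 1000 CPM of myeloid markers they stood at 26.9, 19.6 and 21.3 CPM in mutant replicates 1 to 3. In wildtype replicates 1 to 3 they stood at 35.1, 21.7 and 22.4 CPM. These ranges overlapped as well, through mutant replicate 1 alone, and mutant replicates 2 and 3 lay below every wildtype library. Kindlin-3, talin, pleckstrin, the chain encoded by fcer1g and Wiskott-Aldrich family proteins are also made by leukocytes. None of the erythroid or myeloid markers was at 0 over all libraries. The part of erythroid or myeloid cells in the values of the 9 genes was not tested.

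**Figure D5:**
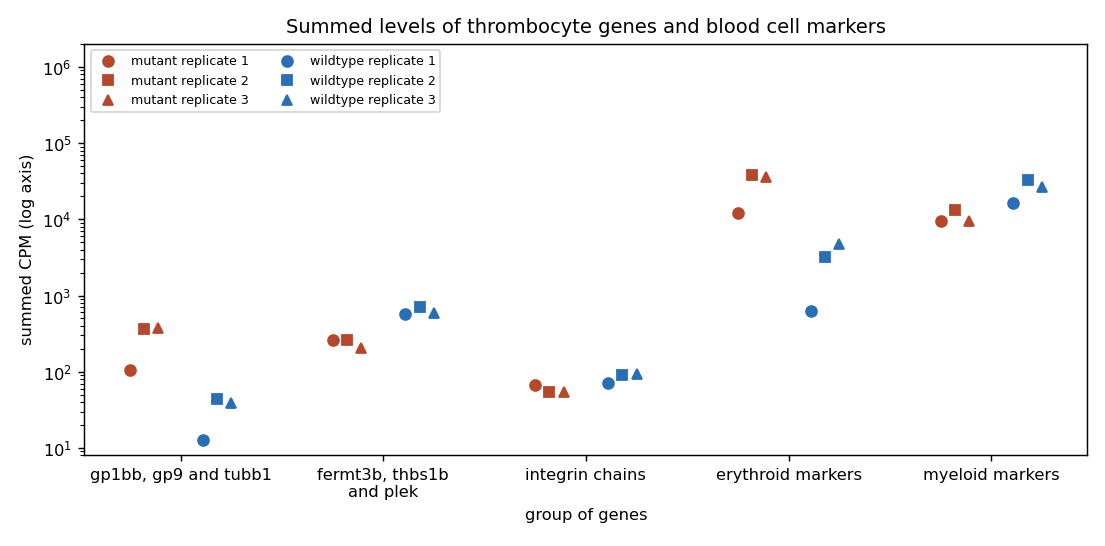
Summed CPM of groups of the thrombocyte genes and of the erythroid and myeloid markers in each library, on a log axis; points are libraries. The sum of gp1bb, gp9 and tubb1 and that of erythroid markers were higher in every mutant library, and the sum of fermt3b, thbs1b and plek and that of myeloid markers were lower in every mutant library. Each of these thrombocyte genes was already apart in the same direction and was grouped after its values were seen, so their sums had to be apart.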

How the data were processed

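Transcript counts came from 6 libraries of cd41-positive zebrafish cells, 3 per genotype. The authors counted read pairs per gene on GRCz10 with the Ensembl release 85 genes, using featureCounts 1.5.0-p1 with both mates mapped and chimeric pairs left out, per the file headers. No strand, multiple mapping or overlap option was set, so overlapping genes and near-identical copies are uncertain. Trimming and alignment tools (Trim Galore, STAR 2.4.2a) are named without their roles, per the submitters' processing notes. The authors deposited raw counts without normalization, beside a length column of another kind, the summed exon bases of each gene.

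Members and lists were chosen with earlier results of these data known. The rule gave 10 genes; 1 of them and the genes most like itga2b are not reported here. Of the other 9, 5 were found by symbol, 1 by identifier and 3 (itgb3a, itgb3b, thbs1b) by orthologue symbol together with the chromosome that RefSeq's GRCz12tu table gives; fermt3b was named the same way. Ensembl names covered 26269 of 32105 genes, and lists were matched likewise (43 of 52, 36 of 42 and 52 of 58 entries). Of the markers, 17 of 20 erythroid, 17 of 20 myeloid, 13 of 14 stem and progenitor and 16 of 18 endothelial entries were matched. Named genes were these 9 members and up to 4 genes per thrombocyte list with the smallest p. The genes fermt3a, VAT1, vaspb, tal1 and stab2 were chosen after their values were seen.

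In R 4.3.3, edgeR 4.0.16 was run on all counts with TMM, filterByExpr (minimum count 10, minimum total 15), a genotype term, the two-sided quasi-likelihood F test and Benjamini-Hochberg adjustment over 18722 genes. The SE is the log2 fold change over the square root of F. Alternatives were RLE factors, no mitochondrial genes, other filters, DESeq2 1.42.0, limma 3.58.1 voom with sample weights, a replicate block and leaving out libraries. Same-numbered libraries deviated from their genotype means together (correlations of 0.258, 0.193 and 0.109 over genes). Mutant replicate 2 with wildtype replicate 3 gave 0.073, and mutant replicate 3 with wildtype replicate 2 gave 0.0808. Replicate 1 with any other number was negative. Deviations from a genotype mean cancel out within the genotype, so these negative values follow in part from the positive one of replicate 1. They are no separate evidence of pairing, and replicates 2 and 3 were not clearly told apart. The replicate number was used as a block in an alternative fit, and the main fit leaves it out. The numbers come from the titles, which give no shared clutch or day. No libraries were duplicates (chi-square per degree of freedom at least 19.9). The scripts were tested on simulated data. The genotype was not checked against ddx41, which is not analysed here.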

Additional observations from a re-analysis of the deposited data

How the results depend on the processing

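None of the 9 members changed direction under any of the 14 alternatives run for each. For the 6 genes whose libraries did not overlap, leaving out libraries could not have reversed the direction. The count of higher members was 3 in every alternative that kept all libraries and 0 to 3 with 1 library left out; lower members numbered 3 with the replicate block, DESeq2 or limma voom, and 0 to 2 with 1 library left out. Leaving out both replicate 1 libraries, chosen after the data were seen, gave 4 lower members. Over all genes, 1297 were higher and 1168 lower by DESeq2 (625 and 373 by edgeR), and 1460 and 1352 by limma voom. These counts were 1702 and 1647 without both replicate 1 libraries, 917 and 653 with the replicate block, and 710 and 507 with no filter. With 1 library left out they ranged from 51 to 1135 higher and 11 to 832 lower.

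Calls in the receptor list of 38 tested genes, 4 in the main edgeR fit (1 higher and 3 lower), numbered 7 with the replicate block (4 and 3). They numbered 9 by DESeq2 (3 higher and 6 lower) and 15 by limma voom (5 and 10). There were 19 without both replicate 1 libraries (5 and 14), and 0 to 9 with 1 library left out. The granule list of 35 tested genes, with 1 call (lower), had 3 with no filter (1 higher and 2 lower) and 2 with the replicate block (1 and 1). It had 6 by DESeq2 (2 higher and 4 lower) and 7 by limma voom (2 and 5). There were 9 without both replicate 1 libraries (1 and 8), and 0 to 3 with 1 library left out. The cytoskeleton list of 52 tested genes, with 3 calls, had 8 with no filter, 9 with the replicate block, 14 by DESeq2 and 23 by limma voom, all lower. It had 29 without both replicate 1 libraries, also all lower, and 1 to 11 with 1 library left out. Over the genes tested, edgeR called 3.34% higher and 1.99% lower, and with the replicate block 4.90% and 3.49%. DESeq2 called 7.39% higher and 6.65% lower, and limma voom 7.80% and 7.22%. The log2 ratio of itgb3a to itgb3b differed by 0.39, and by -0.11 to 0.97 with 1 library left out. Pairing by replicate number cannot change the mean difference of 0.39. The paired two-sided exact permutation test gave p = 0.75, where 3 pairs cannot give a small p. The replicate block changed no call of a member other than plek. The cause of these differences was not tested. The few counts of itga2b limit what can be read from them.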

Other observations

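Stem and progenitor markers, which the source name of the samples implies, were present in both genotypes. Of 13 tested, 1 rose, tal1, a transcription factor gene of early blood that red cell precursors also use, at 68.2 ± 38.1 CPM in the mutants and 11.4 ± 4.80 CPM in the wildtypes (n = 3, SD; edgeR adjusted p = 0.0262). None fell and 12 did not pass. That was 7.69% higher, against 3.34% of all genes tested. The list held 9 negative log2 fold changes with a median of -0.54. The mutant libraries lay all above the wildtype libraries in 1 gene and all below in 2, against 15.3% and 13.4% of all genes tested. The level summed over these 13 genes was 340 to 519 CPM in the mutants and 292 to 553 CPM in the wildtypes. That of the 3 integrin chain genes was 54.5 to 66.8 CPM in the mutants and 70.5 to 93.9 CPM in the wildtypes. The sums are not scaled for the number or length of genes, so their sizes cannot be compared. Of 16 endothelial markers, 1 rose (6.25%, against 3.34% of all genes tested) and none fell. It was the scavenger receptor gene stab2, at 23.5 ± 13.2 CPM in the mutants and 2.80 ± 1.498 CPM in the wildtypes (edgeR adjusted p = 0.0263). Their summed level was 78.9 to 132 CPM in the mutants and 60.2 to 105 CPM in the wildtypes.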
